A study of Homo sapiens with 6 samples.

Results

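The genes described here are 36 enzymes that make purine and pyrimidine nucleotides, the deoxynucleotides used for DNA and the folate-bound carbon units that feed both. They were chosen by name, and the rows of the deposited table carrying those names were compared between cells given a miR-21-3p mimic and cells given a negative control (NC) mimic. Of the 36 listed enzymes, 34 had a row among the 22152 rows of the table. All of these 34 passed the filter on low values (at least 10 in at least 3 samples), which left 14795 genes for testing, while NME1 and NME2 were not analysed here.

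The cells were HaCaT, a spontaneously immortalised line of human keratinocytes (KCs). The 3 NC samples had been transfected with 1 nM of a non-targeting mimic, and the 3 miR-21-3p samples with 1 nM of a synthetic double-stranded RNA that stands in for mature miR-21-3p, the strand of the miR-21 hairpin that is usually the less abundant one. RNA was collected 48 h after transfection in both groups. The labels give polyA RNA and stranded mRNA libraries, whereas the study's methods speak of small RNA libraries. The labels were followed here. By them the groups shared the line, dose, time and library type and differed, as labelled, in the mimic. Values are gene read counts divided by a size factor of each sample, called normalised counts below, and 24400000, 24500000 and 26200000 reads in the NC samples and 24800000, 25000000 and 28000000 in the miR-21-3p samples lay behind them.

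The keratinocyte label was checked against marker genes. KRT5 stood at 139000, 123000 and 130000 normalised counts in the NC samples and 135000, 139000 and 125000 in the miR-21-3p samples, and KRT14 lay between 33300 and 39800 in all 6. All 11 keratinocyte markers with a row passed the filter. Markers of other cell types had lower normalised counts than KRT5 and KRT14, not scaled by length: COL1A1 of fibroblasts had 560, 390 and 478 in NC and 372, 378 and 364 in miR-21-3p samples, PMEL of melanocytes lay between 120 and 155, CD14 of leukocytes between 58.7 and 92.2, and VWF of endothelium between 712 and 801. KRT16 of the keratinocyte list, between 192 and 241, lay below COL1A1 and VWF. Each of these 4 markers of other cell types was the only one of its list with a row used here, and none was called different between the groups (limma adjusted p from 0.064 to 0.89), although all 3 miR-21-3p values of COL1A1 were below its NC values (log2 fold change -0.34, limma adjusted p = 0.064).

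Purine rings are built step by step on phosphoribosyl pyrophosphate (PRPP), a route that ends in inosine monophosphate and then forks to adenine and guanine nucleotides, whereas the pyrimidine ring is closed first and joined to PRPP afterwards. Ribonucleotide reductase turns ribonucleotides into deoxynucleotides, thymidylate synthase makes the thymine nucleotide with a folate cofactor, and salvage enzymes recover bases and nucleosides that would otherwise be lost. Proliferating cells, including the KCs of the basal epidermis, draw heavily on these routes when they copy their DNA, and several of the genes are known to be transcribed mainly around S phase.

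In miR-21-3p-transfected KCs, upregulated enzymes were found in 5 of the 6 branches, all but the nucleotide kinases. With a replicate block, in limma or edgeR, none was called in the folate branch either. Of the 34 enzymes, 15 were upregulated and 0 downregulated compared to NC (limma, Benjamini-Hochberg adjusted p under 0.05), against 6.11% of all tested genes called higher and 4.66% called lower. At an unadjusted p under 0.05, 23 of the 34 were higher and 0 lower, against 15.3% and 13.2% of all tested genes. On recovered reads, edgeR and DESeq2 also called 0 lower. The log2 fold change was above 0 in 33 enzymes and below 0 in 1, CTPS2, under each scaling tried, with a median of 0.215 on the log2(value + 1) scale, a 1.16-fold difference, compared to a median of 0.004 over all tested genes. This scale understates the change of low genes. In 17 of the 34 enzymes all 3 miR-21-3p samples lay above all 3 NC samples, an arrangement seen in 16.5% of all tested genes, and the reverse arrangement, seen in 14.8% of them, occurred in 0.

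**Figure D1:**
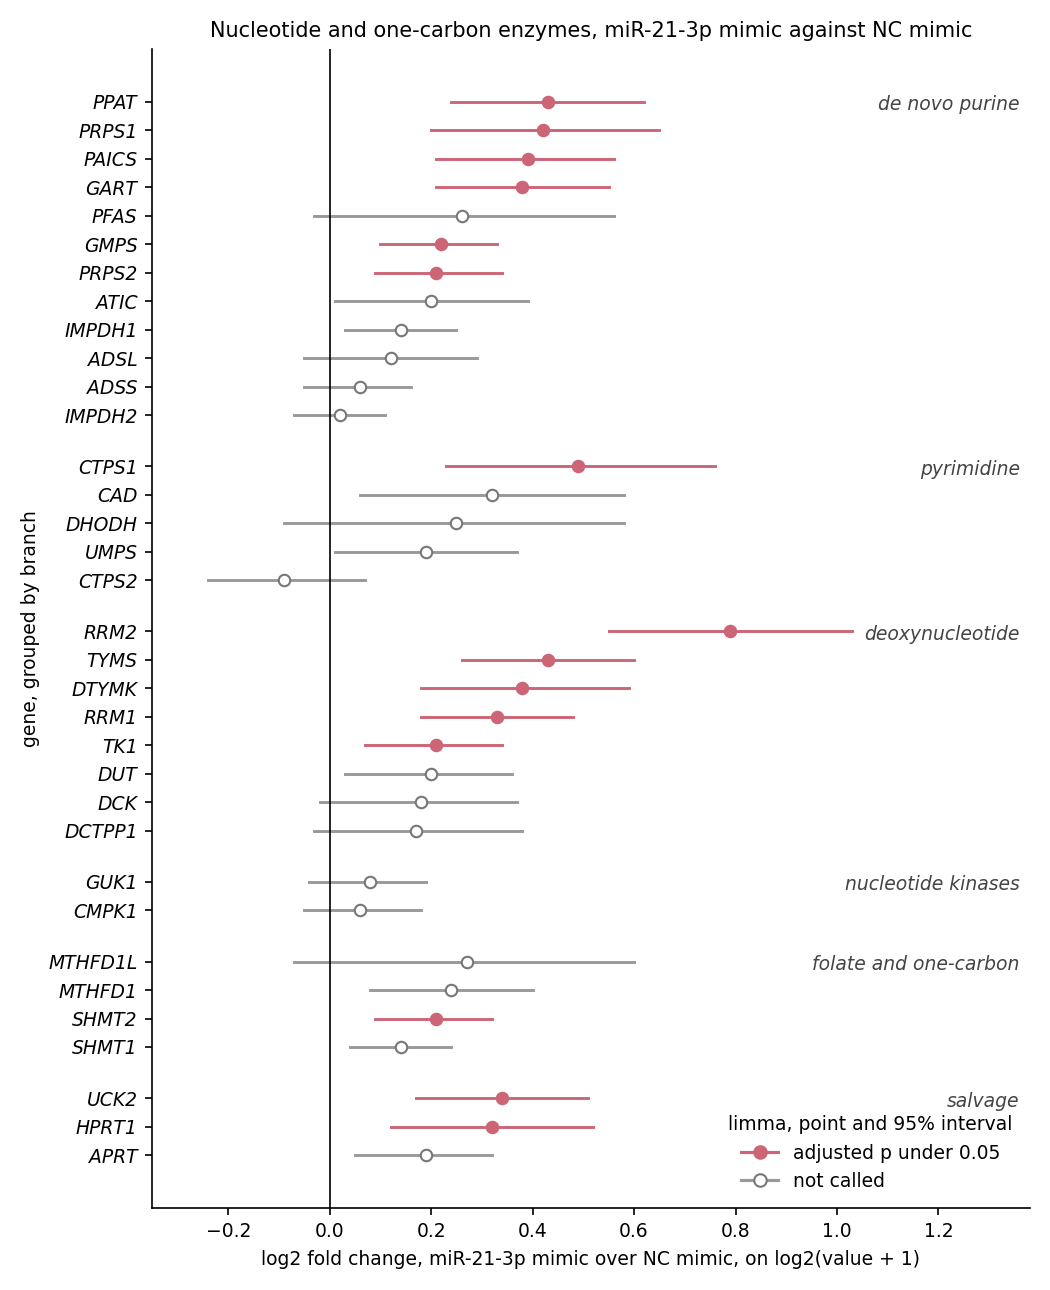
Log2 fold change of the 34 enzymes with a row (x axis, miR-21-3p mimic over NC mimic on the log2(value + 1) scale), grouped by branch on the y axis, with limma 95% intervals from 3 samples per group. Filled points mark the 15 enzymes called at an adjusted p under 0.05, with RRM2 at 0.79 farthest to the right and CTPS2 at -0.09 the only point left of 0.

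Summed over the 34 enzymes, the values made up 0.195%, 0.224% and 0.201% of all normalised counts in NC replicates 1, 2 and 3 and 0.24%, 0.232% and 0.255% in miR-21-3p replicates 1, 2 and 3. Every miR-21-3p sample was therefore above every NC sample in this sum, but NC replicate 2 came close to miR-21-3p replicate 2. NC replicate 2 was the highest NC sample in 29 of the 34 enzymes, miR-21-3p replicate 2 the lowest miR-21-3p sample in 25, and miR-21-3p replicate 3 the highest in 27. This order was not counted over all tested genes. On the first principal component of the whole table, which held 46.7% of the variance, the NC samples lay at -21.25, -1.95 and -13.34 and the miR-21-3p samples at 11.84, 6.86 and 17.85. By mean correlation with the other samples of its group, NC replicate 1 was the lowest of the 6 (0.99464), followed by NC replicate 2 (0.99474).

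The number of enzymes called depended on single libraries. Without NC replicate 2, 23 enzymes were called higher (11% of all tested genes), and without both replicate 2 samples, a choice made after seeing the data, 26 were (12.6%). Without NC replicate 1 the count fell to 4 (2.13%), namely RRM2, TYMS, RRM1 and PPAT. Without NC replicate 3 it was 1, RRM2 (0.664%), and without miR-21-3p replicate 1 it was 2, RRM2 and TYMS (0.982%). Without miR-21-3p replicate 3 the same 2 genes were called (1.37%), and without miR-21-3p replicate 2 the count was 14 (6.09%). The median log2 fold change moved less, between 0.184 and 0.287 without any single library.

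De novo purine synthesis held 12 of the enzymes, of which 6 were upregulated, and the median log2 fold change was 0.215. PPAT, the amidophosphoribosyltransferase that commits PRPP to the purine route, is transcribed from the same stretch of DNA as PAICS, in the opposite direction: in GENCODE 29 their starts lie 126 bases apart on chromosome 4. The promoter window of PPAT is shown as that of the called enzyme of this branch with the smallest limma p. It covers chr4:56435566-56435865 on the minus strand (RefSeq, GRCh38.p14), from 250 bases before the start to 50 after it, and the capitals mark its 1 copy of the E-box CACGTG, 182 bases upstream of the PPAT start.
PPAT promoter: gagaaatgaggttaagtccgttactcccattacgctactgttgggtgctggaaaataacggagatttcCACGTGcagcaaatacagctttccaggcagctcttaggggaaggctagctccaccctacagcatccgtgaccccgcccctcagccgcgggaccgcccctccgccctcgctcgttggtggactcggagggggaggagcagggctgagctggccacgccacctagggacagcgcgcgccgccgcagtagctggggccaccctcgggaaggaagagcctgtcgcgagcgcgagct
The same 6 bases, at chr4:56435792-56435797, also lie in 1 of the 3 PAICS windows in RefSeq, 40 bases downstream of that PAICS start on the plus strand.

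PPAT measured 305, 365 and 353 normalised counts in NC replicates 1, 2 and 3 and 470, 426 and 477 in miR-21-3p replicates 1, 2 and 3. The groups did not overlap, and the lowest miR-21-3p sample was replicate 2. Its log2 fold change was 0.43 ± 0.087 (SE, n = 3 per group, limma adjusted p = 0.013), a 1.34-fold difference. Its neighbour PAICS, whose protein carries out a pair of consecutive steps in the middle of the route, gave 1650, 2070 and 1710 in NC and 2310, 2210 and 2560 in miR-21-3p samples. Again the groups were separate, with NC replicate 2 nearest to the miR-21-3p samples, and the log2 fold change was 0.39 ± 0.08 (limma adjusted p = 0.014). GART, which encodes a protein with several active sites used along the route, stood at 1550, 1850 and 1590 in NC and 2140, 1960 and 2400 in miR-21-3p samples. NC replicate 2 and miR-21-3p replicate 2 were the closest samples across the groups, and the log2 fold change was 0.38 ± 0.079 (limma adjusted p = 0.015).

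Both PRPP synthetases rose. PRPS1 had 295, 331 and 278 normalised counts in NC and 412, 352 and 453 in miR-21-3p samples, and PRPS2 had 2060, 2370 and 2180 in NC and 2460, 2600 and 2600 in miR-21-3p samples. Neither gene had overlapping groups, although single samples of the groups came near each other in both. The log2 fold changes were 0.42 ± 0.103 for PRPS1 (limma adjusted p = 0.024) and 0.21 ± 0.056 for PRPS2 (limma adjusted p = 0.032). GMPS, which makes guanosine monophosphate, stood at 1130, 1220 and 1200 in NC and at 1370, 1360 and 1390 in miR-21-3p samples, a small difference between tight groups (log2 fold change 0.22 ± 0.052, limma adjusted p = 0.023).

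The other 6 purine enzymes did not pass the test, with log2 fold changes from 0.02 to 0.26 and limma adjusted p from 0.1 to 0.78. PFAS (0.26) and ATIC (0.20), which act between PPAT and inosine monophosphate, had overlapping groups, and both were called without NC replicate 2. ADSL was at 0.12. On the guanine fork IMPDH1 was at 0.14 and IMPDH2 at 0.02, and on the adenine fork ADSS was at 0.06. All 6 calls of this branch were kept without NC replicate 2 (limma adjusted p from 0.00016 to 0.01), and 5 of 6 without miR-21-3p replicate 2. PAICS and GART were not called without NC replicate 1 (limma adjusted p = 0.054 and 0.056), NC replicate 3 (0.076 for both), miR-21-3p replicate 1 (0.059 and 0.063) or miR-21-3p replicate 3 (0.063 and 0.059). PPAT was lost without NC replicate 3 (0.055), miR-21-3p replicate 1 (0.071) or miR-21-3p replicate 3 (0.061). PRPS1, PRPS2 and GMPS were lost without NC replicate 1, NC replicate 3, miR-21-3p replicate 1 or miR-21-3p replicate 3 (0.071 to 0.12). PRPS2 was also lost without miR-21-3p replicate 2 (0.07), and GMPS with a replicate block (limma adjusted p = 0.054, edgeR adjusted p = 0.054).

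Of the 5 pyrimidine enzymes 1 was upregulated. The branch median was 0.247, and it moved to 0.152 without miR-21-3p replicate 3, 0.156 without NC replicate 3 and 0.393 without miR-21-3p replicate 2. CTPS1, one of a pair of enzymes that convert uridine to cytidine triphosphate, gave 230, 284 and 226 normalised counts in NC and 367, 290 and 389 in miR-21-3p samples. The groups were separate by a narrow margin, since NC replicate 2 and miR-21-3p replicate 2 nearly met, and the log2 fold change was 0.49 ± 0.122 (limma adjusted p = 0.026). Without NC replicate 1 (0.09), NC replicate 3 (0.11), miR-21-3p replicate 1 (0.11) or miR-21-3p replicate 3 (0.11) the adjusted p of CTPS1 no longer passed. The remaining 4 enzymes had log2 fold changes from -0.09 to 0.32 and overlapping groups. CAD, which opens the pyrimidine route, was at 0.32 (limma adjusted p = 0.1), with 803, 911 and 719 in NC and 1080, 811 and 1170 in miR-21-3p samples. Its replicate 2 samples were reversed relative to the others, and CAD was called without NC replicate 2 (0.019) or without miR-21-3p replicate 2 (0.014). DESeq2 on recovered reads called CAD with all samples (adjusted p = 0.039). UMPS and DHODH, which act after CAD, were at 0.19 and 0.25, and CTPS2 was at -0.09. UMPS was called without NC replicate 2.

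In the deoxynucleotide branch 5 of 8 enzymes were upregulated, the median log2 fold change was 0.267, and the largest difference among the 34 enzymes was found. RRM2, the gene with this difference, encodes the small subunit of ribonucleotide reductase that is made in cycling cells. Its promoter window is shown as that of the called enzyme of this branch with the smallest limma p. It lies at chr2:10122489-10122788 on the plus strand (RefSeq, GRCh38.p14, 1 of 2 windows for this gene). Neither the E-box nor the E2F-type words searched were in it. The capitals mark 3 copies of CCAAT, a motif added after the sequence was seen, the first of them beginning 123 bases and the last 66 bases before the start.
RRM2 promoter: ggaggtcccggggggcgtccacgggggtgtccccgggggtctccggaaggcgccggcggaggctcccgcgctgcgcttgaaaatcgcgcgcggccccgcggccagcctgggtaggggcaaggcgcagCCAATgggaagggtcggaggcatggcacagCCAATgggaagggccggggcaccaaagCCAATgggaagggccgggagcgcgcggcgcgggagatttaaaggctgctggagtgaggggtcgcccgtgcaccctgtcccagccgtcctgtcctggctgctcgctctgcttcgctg
A window with at least 3 copies of CCAAT was found for 2 of the 31 enzymes with a promoter sequence, RRM2 and GART (6.5%), compared to 5.9% of the 9744 tested genes with a window and 3.9% of all 27305 genes of the promoter table.

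RRM2 measured 1340, 1980 and 1550 normalised counts in NC and 2650, 2620 and 3060 in miR-21-3p samples. The groups were far apart, the highest NC sample again being replicate 2. The difference was 72.8% (log2 fold change 0.79 ± 0.111, limma adjusted p = 0.0034), and RRM2 was called without each of the 6 libraries in turn (limma adjusted p from 7.3e-06 to 0.026). RRM1, the large catalytic subunit of the same enzyme, had 3670, 4630 and 4220 in NC and 5100, 5150 and 5400 in miR-21-3p samples. Its groups were also separate, and its log2 fold change was 0.33 ± 0.07 (limma adjusted p = 0.015). RRM1 was lost without NC replicate 3 (0.065), miR-21-3p replicate 1 (0.061) or miR-21-3p replicate 3 (0.064).

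TYMS, thymidylate synthase, stood at 1070, 1290 and 1020 in NC and 1490, 1460 and 1590 in miR-21-3p samples. The miR-21-3p samples were close to each other and above every NC sample (log2 fold change 0.43 ± 0.078, limma adjusted p = 0.009), and the call was lost only without NC replicate 3 (0.054). DTYMK, the kinase that phosphorylates the product of TYMS, gave 803, 931 and 685 in NC and 1050, 969 and 1120 in miR-21-3p samples, with separate groups and a log2 fold change of 0.38 ± 0.096 (limma adjusted p = 0.027). TK1, the thymidine kinase of S phase, had 3820, 4430 and 4050 in NC and 4420, 4770 and 4990 in miR-21-3p samples. Its groups overlapped, since miR-21-3p replicate 1 lay just under NC replicate 2, and its log2 fold change of 0.21 ± 0.061 only just passed (limma adjusted p = 0.049). Among the other 12 settings tried TK1 was called in 5, and it was called without NC replicate 2 alone among the 6 libraries left out (0.0048, against 0.073 to 0.17). DTYMK was lost without NC replicate 1 (0.075), NC replicate 3 (0.11), miR-21-3p replicate 1 (0.1) or miR-21-3p replicate 3 (0.11).

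The other 3 enzymes of this branch had smaller log2 fold changes and overlapping groups. DUT, which keeps uracil out of DNA, was at 0.20, DCK, which salvages deoxycytidine, at 0.18, and DCTPP1, a pyrophosphatase of deoxycytidine nucleotides, at 0.17 (limma adjusted p from 0.11 to 0.26). DUT and DCTPP1 were called without NC replicate 2. With TK1 and DCK counted under salvage, the median log2 fold change was 0.356 for the remaining deoxynucleotide enzymes and 0.206 for salvage. None of the 2 nucleotide kinases was called, and neither reached an unadjusted p under 0.05 with limma, edgeR or DESeq2 (0 of 2 each). GUK1, which phosphorylates guanosine monophosphate, gave 3290, 3280 and 3240 in NC and 3170, 3580 and 3610 in miR-21-3p samples, so that miR-21-3p replicate 1 was below every NC sample and the others above (log2 fold change 0.08 ± 0.053, limma adjusted p = 0.37). CMPK1, which phosphorylates cytidine and uridine monophosphate, was at 0.06.

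Folate and one-carbon enzymes had a median log2 fold change of 0.224, and 1 of 4 was called. SHMT2, the mitochondrial serine hydroxymethyltransferase that passes a carbon from serine to folate, measured 4020, 4290 and 3930 in NC and 4820, 4410 and 4900 in miR-21-3p samples. The groups did not overlap, with both replicate 2 samples nearest to each other, and the log2 fold change was 0.21 ± 0.053 (limma adjusted p = 0.029). MTHFD1, a cytosolic enzyme that interconverts the folate-bound carbon units, had separate groups at 1200, 1460 and 1310 against 1490, 1500 and 1700, and just missed the threshold (0.24, limma adjusted p = 0.056). The cytosolic SHMT1 (0.14) also had separate groups without being called (limma adjusted p = 0.07), and the mitochondrial MTHFD1L (0.27) had overlapping ones. SHMT2 was lost without NC replicate 1 (0.085), NC replicate 3 (0.13), miR-21-3p replicate 1 (0.13) or miR-21-3p replicate 3 (0.11). It was also lost with a replicate block (limma adjusted p = 0.057, edgeR adjusted p = 0.064), which left no call in this branch. MTHFD1 was called without NC replicate 2 (limma adjusted p = 0.0049). With all samples MTHFD1 was called by DESeq2 (adjusted p = 0.038) and by edgeR with no filter (adjusted p = 0.044).

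Salvage enzymes were 2 of 3 upregulated, with a median log2 fold change of 0.321. UCK2, a kinase for uridine and cytidine, gave 632, 740 and 721 in NC and 866, 819 and 961 in miR-21-3p samples. The groups were well separated (log2 fold change 0.34 ± 0.078, limma adjusted p = 0.02). HPRT1, which returns hypoxanthine and guanine to nucleotides, had 846, 1110 and 877 in NC and 1170, 1090 and 1260 in miR-21-3p samples, so NC replicate 2 lay just above miR-21-3p replicate 2 and the groups overlapped (log2 fold change 0.32 ± 0.092, limma adjusted p = 0.044). APRT, the matching enzyme for adenine, was separate between the groups but not called (0.19, limma adjusted p = 0.074). UCK2 and HPRT1 were lost without NC replicate 1 (0.069 and 0.16), NC replicate 3 (0.068 and 0.17), miR-21-3p replicate 1 (0.075 and 0.13) or miR-21-3p replicate 3 (0.087 and 0.16). HPRT1 was also lost with no filter (limma adjusted p = 0.051) and with edgeR after upper quartile scaling (adjusted p = 0.052). APRT was called without NC replicate 2 (limma adjusted p = 0.01).

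**Figure D2:**
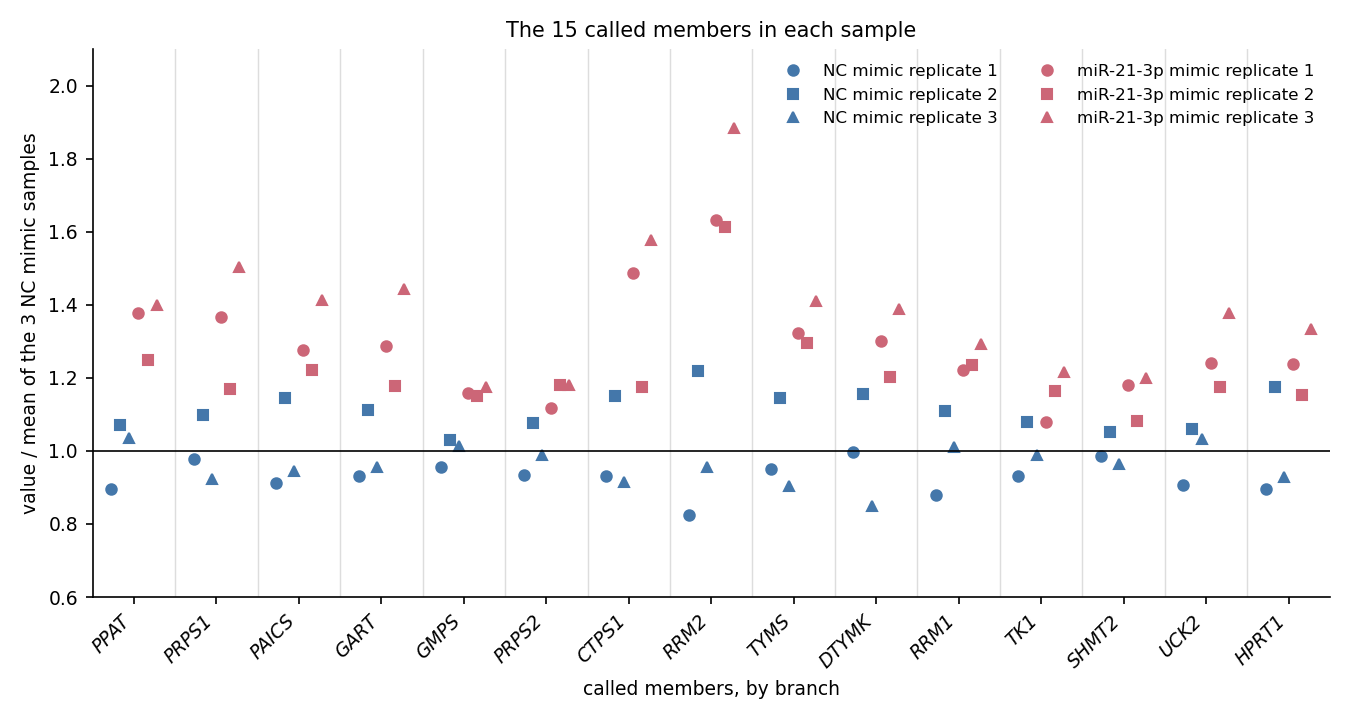
Value of the 15 called enzymes in each sample (y axis, normalised count divided by the mean of the 3 NC samples), ordered by branch along the x axis, with blue points for NC and red points for miR-21-3p samples and a marker shape for each replicate. In 13 of the 15 the red points lie above all blue ones, and NC replicate 2 is the highest blue point in all 15.

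Pairs of enzymes that share a reaction were compared by their ratio in each sample, which removes what both genes of a sample have in common. RRM2 was 2.51, 3.86 and 3.02 times RRM2B, the small subunit known for its induction by p53, in NC and 4.71, 5.42 and 5.83 times in miR-21-3p samples. The ratio did not overlap between groups (log2 difference 0.78), as RRM2B itself was level at 533, 513 and 513 in NC and 563, 483 and 525 in miR-21-3p samples (log2 fold change 0.01, limma adjusted p = 0.95). The CTPS1 to CTPS2 ratio was 0.298, 0.323 and 0.293 in NC and 0.506, 0.393 and 0.477 in miR-21-3p samples, also without overlap (log2 difference 0.58), and that of IMPDH1 to IMPDH2 differed by 0.12 without overlap. These 3 pairs each gave a two-sided exact permutation p of 0.1, the smallest that 3 against 3 samples allow, and 0.2 after Benjamini-Hochberg adjustment over the 6 pairs compared, so none could pass a threshold of 0.05. The ratios of PRPS1 to PRPS2 (0.21), SHMT1 to SHMT2 (-0.07) and MTHFD1 to MTHFD1L (-0.02) overlapped between the groups (exact permutation p = 0.3, 0.2 and 1).

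**Figure D3:**
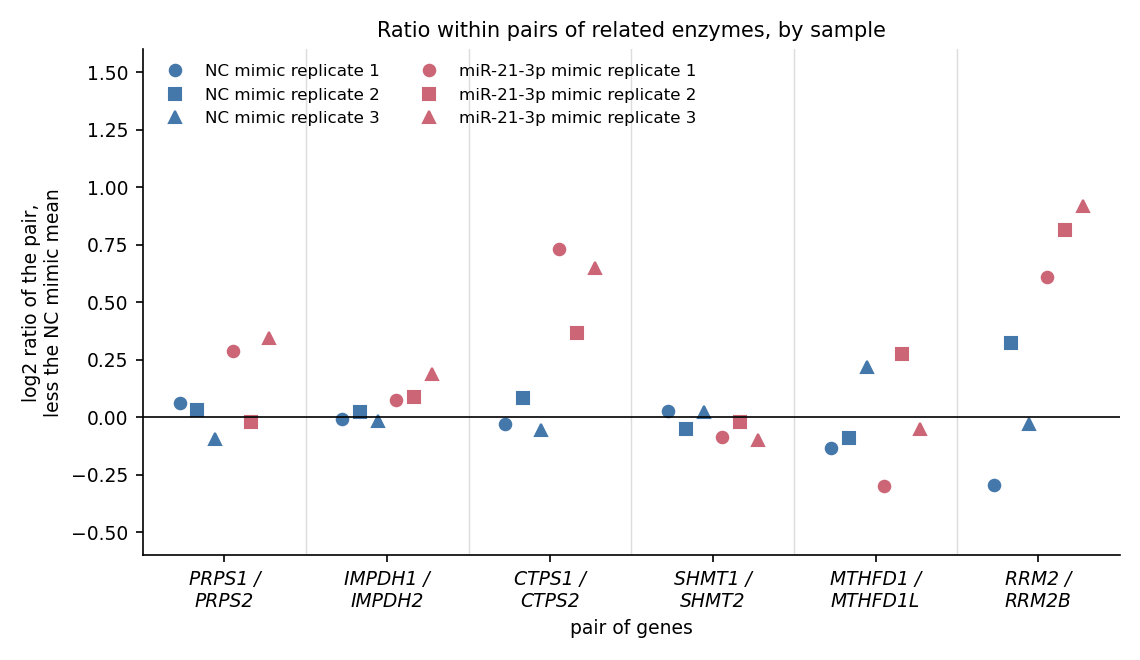
Log2 ratio of the normalised counts within 6 pairs of related enzymes (x axis) in each sample, less the mean of the 3 NC samples (y axis). The miR-21-3p samples lie above all NC samples for RRM2 over RRM2B, CTPS1 over CTPS2 and IMPDH1 over IMPDH2, and overlap with them for the other 3 pairs.

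Levels of different enzymes can be compared only per length, and here normalised counts were divided by the length in kb of all annotated exons of a gene (GENCODE 29), which understates genes with long rare transcripts. On that scale TK1 was the most abundant enzyme in NC samples with a mean of 2200 ± 166 per kb (SD, n = 3), followed by IMPDH2 at 1380 ± 33.1 and CMPK1 at 1130 ± 58.2. DHODH was the lowest at 14.4 ± 1.77, next to CTPS1 at 21.4 ± 2.81 and MTHFD1L at 34.7 ± 5.59. The called CTPS1 was thus the lesser of its pair, as CTPS2 stood at 147 ± 11.2 per kb, and PRPS1 at 115 ± 10.3 likewise lay below PRPS2 at 799 ± 56.7. RRM2 rose from a mean of 305 to 522 per kb, while RRM2B stood at 93.7 and 94.4 in the NC and miR-21-3p groups.

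Promoter windows were searched on both strands for the E-box CACGTG, a word bound by MYC-type factors, and for E2F-type words made of TTT, then a pair of letters that are each C or G, then CGC. RefSeq windows were found for 31 of the 34 enzymes, all but IMPDH2, ADSL and SHMT2, with 48 windows among them. An E-box was in a window of 8 of the 31 (25.8%), compared to 12.5% of the 9744 tested genes with a window and 8.8% of all 27305 genes of the table. The 8 were PPAT and PAICS, which were called and share 1 site, and ATIC, DHODH, DCK, DCTPP1, MTHFD1 and MTHFD1L, which were not. Of the enzymes with a window, 14.3% of those called and 35.3% of those not called had an E-box. An E2F-type word was in a window of 5 (16.1%, compared to 6.7% and 4.0%): the called TYMS, PRPS2 and GART, and DUT and DCK. In TYMS the word began 39 bases before the start. At least 1 CCAAT was found for 12 of the 31 (38.7%), compared to 43.3% of the tested genes with a window and 39.7% of all genes of the table. A match describes the letters of a window and is not a measured binding site.

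The other genes of these pathways came from lists of 75 genes, of which 60 had a single row and were tested. They held 9 upregulated and 2 downregulated genes, against 6.11% of all tested genes called higher and 4.66% called lower. Their median log2 fold change was 0.081. The difference between these genes and the 34 enzymes was not tested. Around the folate cycle, 4 of 20 were higher and 2 lower. MTHFD2, the mitochondrial partner of SHMT2, had 1100, 1240 and 1180 normalised counts in NC and 1510, 1450 and 1510 in miR-21-3p samples, without overlap (log2 fold change 0.35 ± 0.056, limma adjusted p = 0.0058). PSAT1, an enzyme of serine synthesis, had 1140, 1730 and 1250 against 2390, 1780 and 2570, again with NC replicate 2 and miR-21-3p replicate 2 close together (0.72 ± 0.146, limma adjusted p = 0.013). The other enzymes of that route in the list, PHGDH and PSPH, were not called (0.10 and 0.04, limma adjusted p = 0.18 and 0.76). The reduced folate carrier SLC19A1 was at 0.56 without overlap (limma adjusted p = 0.022). The lower genes were AMT of the glycine cleavage system (-0.49, limma adjusted p = 0.016) and MAT2B, a regulatory subunit of methionine adenosyltransferase (-0.19, limma adjusted p = 0.028). MAT2B was not called with a replicate block (limma adjusted p = 0.055). Without NC replicate 1, NC replicate 2, NC replicate 3, miR-21-3p replicate 1, miR-21-3p replicate 2 and miR-21-3p replicate 3 in turn, the counts of higher genes were 2, 15, 1, 1, 10 and 1 and those of lower genes 1, 7, 0, 1, 4 and 0. The shares of all tested genes called lower in these fits were 1.55%, 9.03%, 0.549%, 0.887%, 4.35% and 1.1%, those called higher are given above, and without both replicate 2 samples 8 of these genes were lower (10.5% of all tested genes). MTHFD2 was called each time. PSAT1 and SLC19A1 were lost without NC replicate 1, NC replicate 3, miR-21-3p replicate 1 or miR-21-3p replicate 3.

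In the remaining deoxynucleotide genes, 2 of 10 were called, both higher, among them DNPH1 (log2 fold change 0.38, limma adjusted p = 0.033). SAMHD1, which breaks deoxynucleotides down, had 2640, 3290 and 2980 in NC and 3360, 3370 and 3790 in miR-21-3p samples and just missed the threshold despite separate groups (0.24, limma adjusted p = 0.054). Of 13 further salvage and uptake genes, PNP (0.31) and the nucleoside transporter SLC29A1 (0.27) were higher (limma adjusted p = 0.029 and 0.03). NT5C3A of this list had separate groups in the lower direction and just missed the threshold (-0.23, limma adjusted p = 0.052). Of 3 breakdown genes, GDA, a guanine deaminase, was higher (0.47, limma adjusted p = 0.032). DNPH1, PNP and GDA were each lost without NC replicate 1, NC replicate 3, miR-21-3p replicate 1 or miR-21-3p replicate 3 (limma adjusted p from 0.085 to 0.13), and SLC29A1 without those other than NC replicate 1 (0.11 to 0.12). Among 14 further kinases and interconversion enzymes 0 were called with limma and with DESeq2 and 1, AMPD3 (log2 fold change -0.20), was lower with edgeR. At an unadjusted p under 0.05 with limma, 1 was higher and 2 were lower (AMPD3 and AK4, named after their values were seen).

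Since several of these enzymes are transcribed around S phase, cell cycle genes were read in the same samples. Of all tested genes, 6.11% were called higher. Of 20 S phase genes 7 were upregulated and the median log2 fold change was 0.295, with log2 fold changes of 0.58 for MCM6, 0.41 for GINS2, 0.29 for PCNA, 0.32 for CCNE2, 0.36 for CDC6 and 0.31 for MCM7 (limma adjusted p from 0.011 to 0.042). All 15 genes of a G2/M list were upregulated, with a median of 0.367, log2 fold changes from 0.24 to 0.44 and separate groups in each. The smallest limma adjusted p of this list belonged to BIRC5, CDK1, CCNA2, CCNB1, CCNB2 and MKI67 (0.0055 to 0.01). MKI67, the proliferation marker, had 22300, 27600 and 24700 in NC and 31600, 30800 and 34300 in miR-21-3p samples. Without NC replicate 1, NC replicate 2, NC replicate 3, miR-21-3p replicate 1, miR-21-3p replicate 2 and miR-21-3p replicate 3 in turn, 1, 16, 0, 0, 11 and 0 S phase genes and 10, 15, 4, 8, 14 and 9 G2/M genes were called higher.

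The order of the samples was alike in the enzymes and the cell cycle lists. Relative to the NC mean, the median log2 difference of the 34 enzymes was -0.087, 0.132 and -0.057 in NC replicates 1, 2 and 3 and 0.229, 0.127 and 0.35 in miR-21-3p replicates 1, 2 and 3. That of the S phase list was -0.11, 0.175 and -0.085 and then 0.284, 0.173 and 0.408, and that of the G2/M list -0.14, 0.151 and -0.008 and then 0.335, 0.304 and 0.42. NC replicate 2 was the highest NC sample and miR-21-3p replicate 3 the highest of all in each of these 3 medians, whereas all tested genes had medians between -0.003 and 0.007. In the enzymes and the S phase list NC replicate 2 reached the level of miR-21-3p replicate 2, while in the G2/M list the groups stayed apart. In bulk RNA a larger share of cycling cells and more RNA per cell cannot be told apart, and the part of the cell cycle genes in the enzyme values was not tested.

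**Figure D4:**
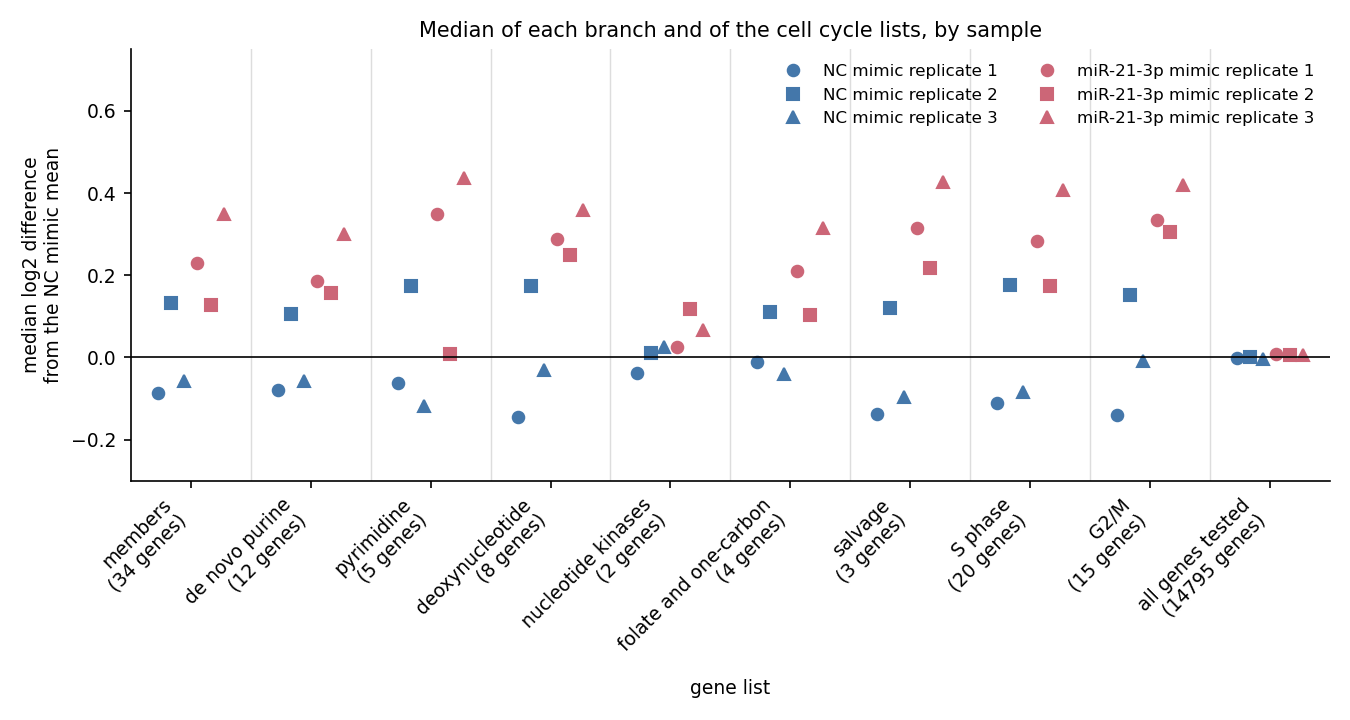
Median log2 difference from the NC mean (y axis) of all 34 enzymes, their 6 branches, the S phase and G2/M lists and all 14795 tested genes (x axis), 1 point per sample, with blue for NC and red for miR-21-3p. The red points of miR-21-3p replicate 3 are the highest in every list shown other than the nucleotide kinases and all tested genes, and the points of all tested genes lie between -0.003 and 0.007.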

How the data were processed

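The submitters' processing notes list bcl2fastq 2.18.12, cutadapt 1.15, TopHat2 2.1.1, featureCounts (Subread 1.5.2) and DESeq2. The genome build is not given in the sources used here. The deposited signal is a gene count divided by a sample's size factor, rounded by the authors to 3 significant digits. Dividing it by each sample's smallest step gave whole reads (within 0.1 read) for 98.47% to 100% of values up to 100 reads. Raw counts had been expected and edgeR planned. Because the files hold normalised values, limma 3.58.1 (R 4.3.3, eBayes with trend) was fitted to log2(value + 1) with group as the only term and Benjamini-Hochberg adjustment over 14795 genes. On recovered reads, edgeR 4.0.16 (TMM) and DESeq2 1.42.0 called 14 and 17 of the 34 enzymes higher. Other alternatives were pseudocounts of 0.5 and 10, no filter, rescaling, a replicate block and leaving out libraries. The fits were tested on simulated data.

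Per-sample values are given for every called enzyme and, in a branch with none, for the one with the smallest p. Of other lists at most 6 called genes per list are named, plus MTHFD2, RRM2B, SAMHD1, MYC and E2F1, and a few genes counted in the lists are not reported here by name. KRT5, KRT14 and the markers of other cell types were named as a check of the label. CAD, MTHFD1, AMPD3, AK4, KRT16, PHGDH, PSPH and NT5C3A were named or given values after these were seen. The labels do not say how the replicate cultures were kept apart, so p-values measure the spread between these samples, which may be technical. The enzymes and lists were chosen with earlier results of these data known. Of 22152 table IDs, 19987 matched GENCODE 29, all 34 enzymes included.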

Additional observations from a re-analysis of the deposited data

How the results depend on the processing

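Of the 15 enzyme calls under 12 other settings of scaling, filter, pseudocount, block and test, 167 of 180 kept their direction and side of the threshold, 13 were no longer past it and 0 reversed; 12 to 17 enzymes were called higher. Rescaling by TMM or upper quartile, pseudocounts, edgeR without a filter and leaving out both replicate 2 samples were chosen after seeing the data. For raw counts, edgeR with TMM had been planned, with a replicate block as an alternative. Running both on recovered reads was decided after seeing the data. Leaving out single libraries, or both replicate 2 samples, gave 98 to 1849 genes higher (904 with all samples) and 81 to 1542 lower (689), 1 to 26 enzymes, 0 to 17 S phase genes, 4 to 15 G2/M genes, and 1 to 15 other pathway genes higher and 0 to 8 lower. Fewer samples lower the power of such fits, yet leaving out NC replicate 2 raised the counts; the cause was not tested. The median of the enzymes ranged from 0.184 to 0.345, the latter without both replicate 2 samples. Other pathway genes called lower numbered 4 rather than 2 after upper quartile rescaling and with edgeR on recovered reads scaled by TMM, DESeq2 size factors or upper quartile, or with no filter; the cause was not tested. Across genes, deviations of same-numbered samples from their group means correlated at -0.002, -0.199 and -0.161. Those of differently numbered samples correlated between -0.126 and 0.267. Deviations within a group sum to 0, so these values cannot decide whether a replicate number marks a shared culture or day. With a replicate block, limma called 681 genes higher, 512 lower, 13 enzymes higher and 1 other pathway gene lower, and edgeR 12 enzymes and 1. The alternative without NME1 and NME2 was not run, as neither was analysed here. At a depth of 24400000 to 28000000 reads, all 34 enzymes with a row passed the filter, and the effect of depth was not tested.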

Other observations

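Among 10 regulators of nucleotide and cell cycle genes with a row, 2 were upregulated, against 6.11% of all tested genes. MYC had 3180, 2730 and 2740 normalised counts in NC and 3760, 3860 and 3590 in miR-21-3p samples, without overlap (log2 fold change 0.38 ± 0.061, limma adjusted p = 0.0055). Here NC replicate 1, not replicate 2, was the NC sample nearest to the miR-21-3p samples, unlike in the 15 called enzymes. E2F2 stood at 1560, 1710 and 1520 in NC and 2150, 2180 and 2270 in miR-21-3p samples (0.46 ± 0.055, limma adjusted p = 0.0016), with groups far apart. E2F1 was at 0.27 with overlapping groups (limma adjusted p = 0.11). MYC and E2F2 were called without each of the 6 libraries in turn.

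Of the 11 keratinocyte markers with a row, 2 were higher, 1 was lower and 8 were not called, with a median log2 fold change of 0.012. Of all tested genes, 6.11% were called higher and 4.66% lower. KRT6A of activated KCs had 16800, 17100 and 16500 in NC and 21500, 20700 and 21700 in miR-21-3p samples, and was higher with tight groups (log2 fold change 0.34 ± 0.044, limma adjusted p = 0.0021), whereas KRT16, also of activated KCs, was at 0.01 (limma adjusted p = 0.95). KRT18 was higher too (0.26, limma adjusted p = 0.0085), though not without NC replicate 3 or miR-21-3p replicate 1 (0.057 each), and ITGB4, an integrin of basal KCs, was lower with overlapping groups (-0.26, limma adjusted p = 0.038). ITGB4 was lost without NC replicate 1 (0.14), NC replicate 3 (0.13), miR-21-3p replicate 1 (0.15) or miR-21-3p replicate 3 (0.14). With a replicate block it also no longer passed (limma adjusted p = 0.05).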
